A study of Mus musculus with 10 samples.

Results

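The Notch pathway was examined in the first pharyngeal arch (PA1) of mouse embryos with and without the epithelial transcription factor GRHL2. The 10 genes described were chosen by name, with earlier results of these data known. They were the receptors Notch1, Notch2 and Notch3, the ligands Jag1, Jag2 and Dll1, and the target genes Hes1, Hey1, Hey2 and Heyl. They are 10 of the 22114 protein-coding genes in the count table. All 10 passed the filter on low counts.

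Notch receptors are single-pass membrane proteins that are bound by Jagged or Delta ligands on a neighbouring cell. Ligand binding exposes the receptor to ADAM proteases and then to gamma-secretase, which frees the intracellular domain. This domain enters the nucleus, binds the DNA-binding protein RBPJ with Mastermind co-activators, and switches on genes of the Hes and Hey families, which encode basic helix-loop-helix repressors. In the embryonic head the pathway is known from blood vessels and their mural cells, from differentiating sensory ganglia, and from jaw patterning, in which Jagged ligands act in the neural crest mesenchyme.

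PA1, which forms the upper and lower jaw, was dissected whole from 10 male embryos at E10.5 with the labelled strain background C57BL/6 (the Grhl2 line was back-crossed to C57BL/6J), and each arch was sequenced as its own library. Of these, 5 embryos were wild type (Grhl2+/+) and 5 were Grhl2-/-, which carry a null allele in every cell and come from crosses of heterozygous parents. No other allele or agent was given for either genotype. The dissected arch holds mesenchyme, epithelium, vessels, blood and nerve, so each value is an average over these cells, and fewer cells of a type and less RNA per cell cannot be told apart. Arches are numbered 1 to 5 within a genotype, as names only. Nothing in the labels says which embryos were litter mates.

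Between 22188454 and 28596428 reads per wild-type arch and between 25658389 and 28801378 per Grhl2-/- arch were counted on protein-coding genes. Grhl2 itself was at 35.6 ± 3.29 CPM (SD, n = 5; CPM are counts scaled to the normalized library size) in wild-type arches and at 4.53 ± 1.45 CPM in Grhl2-/- arches, with no overlap. The table counts Grhl2 over the whole gene, and which of its exons the null allele lacks was not analysed here. All 11 epithelial markers were lower in Grhl2-/- PA1 by sign. Of these, 7 were called lower by limma-voom at FDR below 0.01, as were 1.09% of all genes tested. Among the 7 was Epcam, an epithelial adhesion molecule (54.1 against 9.80 CPM). Cdh3 and Trp63, by mean the most abundant of the 11 in wild-type arches, were not called, at FDR values of 0.0577 and 0.0566. Among Grhl2-/- arches the mean of Krt18, 69.6 CPM, lay above that of Trp63, 61.9 CPM. Krt18 was not called either, with a log2 fold change of -0.07 (FDR 0.848). Libraries of the same genotype stood apart from each other. The summed level of 12 sensory neuron genes was 147 and 128 CPM in wild-type arches 1 and 2 but between 576 and 892 CPM in the other wild-type arches. It was 340 and 375 CPM in Grhl2-/- arches 1 and 4 but between 824 and 1083 CPM in the other Grhl2-/- arches. For this reason the values of the members are also given without wild-type arches 1 and 2, and with this sum as a covariate. Whether the genotype itself shifts this sum was not tested. Where it does, the covariate takes out part of the genotype difference.

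The 3 Hey genes are close relatives, and the reads were 50 bases long. The stretch of coding sequence in which the 3 are most alike is printed because it shows how far reads from these genes can be told apart. It is 60 bases long, spans the junction of exons 3 and 4 in each gene, and is given in the sense of the transcript, with capitals at the positions that differ among the 3. The sequences are from GENCODE on GRCm38.
Hey1, chr3:8665979-8666283, minus strand: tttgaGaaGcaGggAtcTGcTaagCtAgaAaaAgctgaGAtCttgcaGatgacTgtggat
Hey2, chr10:30837509-30840402, minus strand: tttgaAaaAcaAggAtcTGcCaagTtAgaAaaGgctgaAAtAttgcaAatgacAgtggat
Heyl, chr4:123241435-123243071, plus strand: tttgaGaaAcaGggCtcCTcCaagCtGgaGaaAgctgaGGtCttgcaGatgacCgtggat
The 3 genes differ at 16 of these 60 positions, and the closest pair, Hey1 and Heyl, shares 51. None of the 3308 different 50-base windows of the Hey1 transcripts was found in a transcript of another gene, and the same held for the 4590 windows of Hey2 and the 5062 of Heyl. Reads of the 3 genes can thus be told apart by exact sequence, even where the genes are most alike. Of the other members, Notch2 shared 3.755% of its windows with another transcript on the same strand. Dll1 overlaps a non-coding gene on the opposite strand, A930024N18Rik, over 20.55% of its exon bases, so the value of Dll1 depends on the strand setting used in counting. The same holds to a smaller extent for Notch1 and Notch3, of whose 50-base windows 9.111% and 4.848% were found in another gene only on the opposite strand.

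RefSeq promoter sequences on GRCm38.p6, from 250 bases before to 50 bases after the start, were matched for 7 of the 10 members. Those not matched were Hes1, Hey1 and Heyl. They were searched on both strands for GTGGGAA, the core letters bound by RBPJ, and for AACCGGTT, the letters bound by Grainyhead factors, which read the same on both strands. The RBPJ letters occur in 6.383% of 32851 promoters of this length and the Grainyhead letters in 0.146%. Among the 7 members only Hey2 held the RBPJ letters, with 1 match 207 bases before the RefSeq start, read as TTCCCAC on the strand of the gene, and 1 match 4 bases before it. No member promoter held the Grainyhead letters, which says only that these letters are not in these windows. The part of the Hey2 window upstream of the GENCODE start is printed with the first match in capitals, and that of Jag1, the ligand that rose, beside it.
Hey2, chr10:30842802-30843033, minus strand: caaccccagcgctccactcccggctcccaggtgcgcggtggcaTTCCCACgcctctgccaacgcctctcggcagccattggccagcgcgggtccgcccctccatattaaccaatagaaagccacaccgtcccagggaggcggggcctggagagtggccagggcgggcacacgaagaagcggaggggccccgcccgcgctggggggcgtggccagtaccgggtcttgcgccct
Jag1, chr2:137116645-137116770, minus strand: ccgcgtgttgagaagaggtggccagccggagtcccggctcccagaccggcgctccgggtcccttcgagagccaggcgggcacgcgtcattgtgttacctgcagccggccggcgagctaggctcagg
Both stretches are rich in G and C, at 71.1% in Hey2 and 70.6% in Jag1. A match of letters is a description of the sequence and no measurement of binding.

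Levels of different genes were compared per length, as RPKM (the CPM value divided by the length in kilobases of the union of a gene's exons). Notch2 was the most abundant receptor transcript in wild-type PA1, at 35.9 ± 3.22 RPKM (SD, n = 5), and lay above every other member in each wild-type arch. Notch3 followed at 24.1 ± 2.01 RPKM and Hes1 at 23.1 ± 2.60 RPKM, and their ranges overlapped. Jag1, the most abundant of the 3 ligands, was at 11.3 ± 1.56 RPKM. Notch1 at 7.94 ± 1.64 RPKM overlapped both with Jag1 and with Hey1 at 7.43 ± 0.805 RPKM. The ranges of Hes1 and Jag1 and those of Hey1 and Jag2 were apart. The lower end held Jag2 at 6.32 ± 0.350 RPKM, Heyl at 4.31 ± 3.31 RPKM, Dll1 at 1.58 ± 0.516 RPKM and Hey2 at 1.51 ± 0.605 RPKM, and each of these overlapped the next. In Grhl2-/- PA1 the first 4 places were the same, Hey1 at 11.5 ± 1.36 RPKM stood before Notch1 at 10.6 ± 2.50 RPKM, and Heyl and Hey2 each stood 1 place higher than in wild type. Neighbours in the Grhl2-/- order overlapped in range, except Hes1 and Jag1, Jag1 and Hey1, and Jag2 and Hey2. The order depends on the length used, since with coding length alone Hes1 came first in wild type, at 55.6 RPKM against 52.1 for Notch2.

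**Figure D1:**
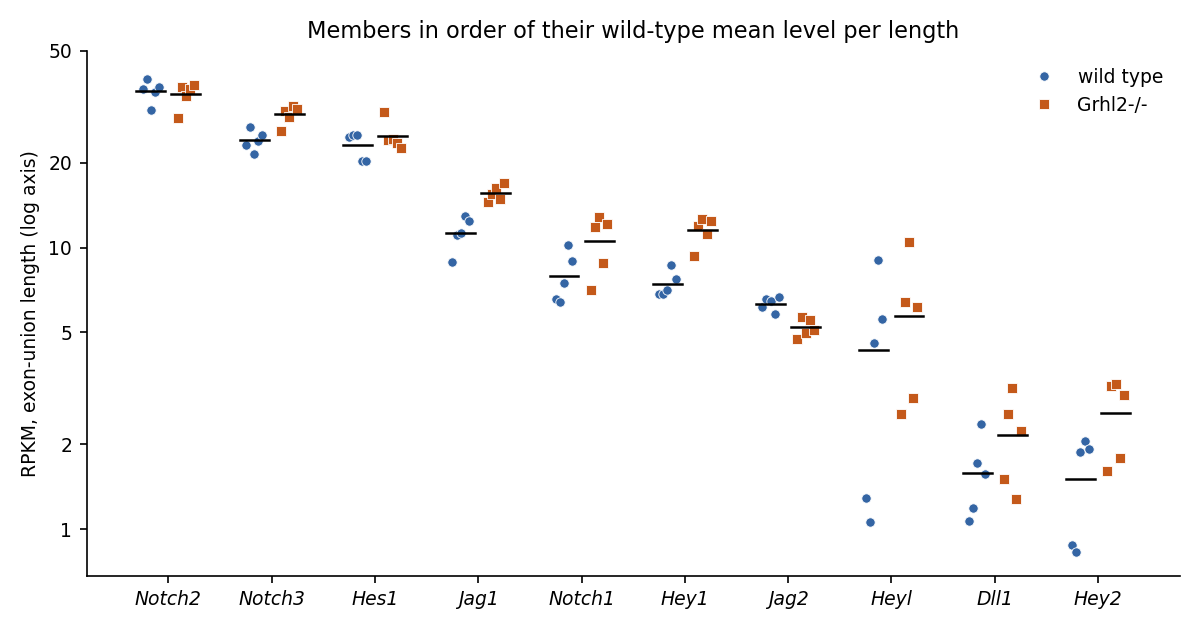
Level per length of the 10 members in 5 wild-type (circles) and 5 Grhl2-/- (squares) arches, in RPKM on a log axis, with bars at the means and 1 point an arch. Notch2 leads at a wild-type mean of 35.9 RPKM, and Dll1 and Hey2 are lowest at 1.58 and 1.51 RPKM.

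The comparison of genotypes asks which parts of the Notch pathway differ in PA1 that lacks GRHL2. The ligand Jag1 and the target Hey1 rose, by 1.39-fold and 1.54-fold, and the other 8 members were not called. These 2 of 10 members stand against 1.96% of all 14561 genes tested that were called in either direction (limma-voom with Benjamini-Hochberg adjustment, FDR below 0.01) and 0.879% that were called higher. The members were listed with earlier results of these data known, and the authors had reported Hey1 as upregulated in them. The counts of members are therefore no independent test of the pathway. The quasi-likelihood test of edgeR called 1 member higher (Hey1), where it called 0.975% of all genes tested higher, and DESeq2 called 3 (Hey1, Jag1 and Notch3), where it called 3.57%. Of the members 0 were called lower by limma-voom, 0 by edgeR and 1 (Jag2) by DESeq2, where 1.09%, 1.11% and 3.8% of all genes tested were called lower by these tools, while Jag2 was lower and Notch3 higher at an FDR between 0.01 and 0.05. At FDR below 0.05 the members thus counted 3 higher and 1 lower, where 7.71% of all genes tested passed, 3.84% higher and 3.87% lower. The median log2 fold change of the 10 members was 0.40 and that of all genes tested 0.01. The median of the members was 0.19 with the sensory neuron sum as a covariate and 0.19 without wild-type arches 1 and 2, where 3 and 2 members had a negative sign. By sign alone, 8 of the 10 members were higher in Grhl2-/- PA1 and Notch2 and Jag2 lower. The 95% interval of the log2 fold change lay above 0 for Notch1, Notch3, Jag1, Hey1 and Hey2 and below 0 for Jag2, which makes 6 of 10 members against 28.5% of all genes tested. Arches of the genotypes did not overlap in Jag1, Hey1 and Jag2, against 8.88% of all genes tested, 4.22% higher and 4.66% lower in Grhl2-/- PA1.

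**Figure D2:**
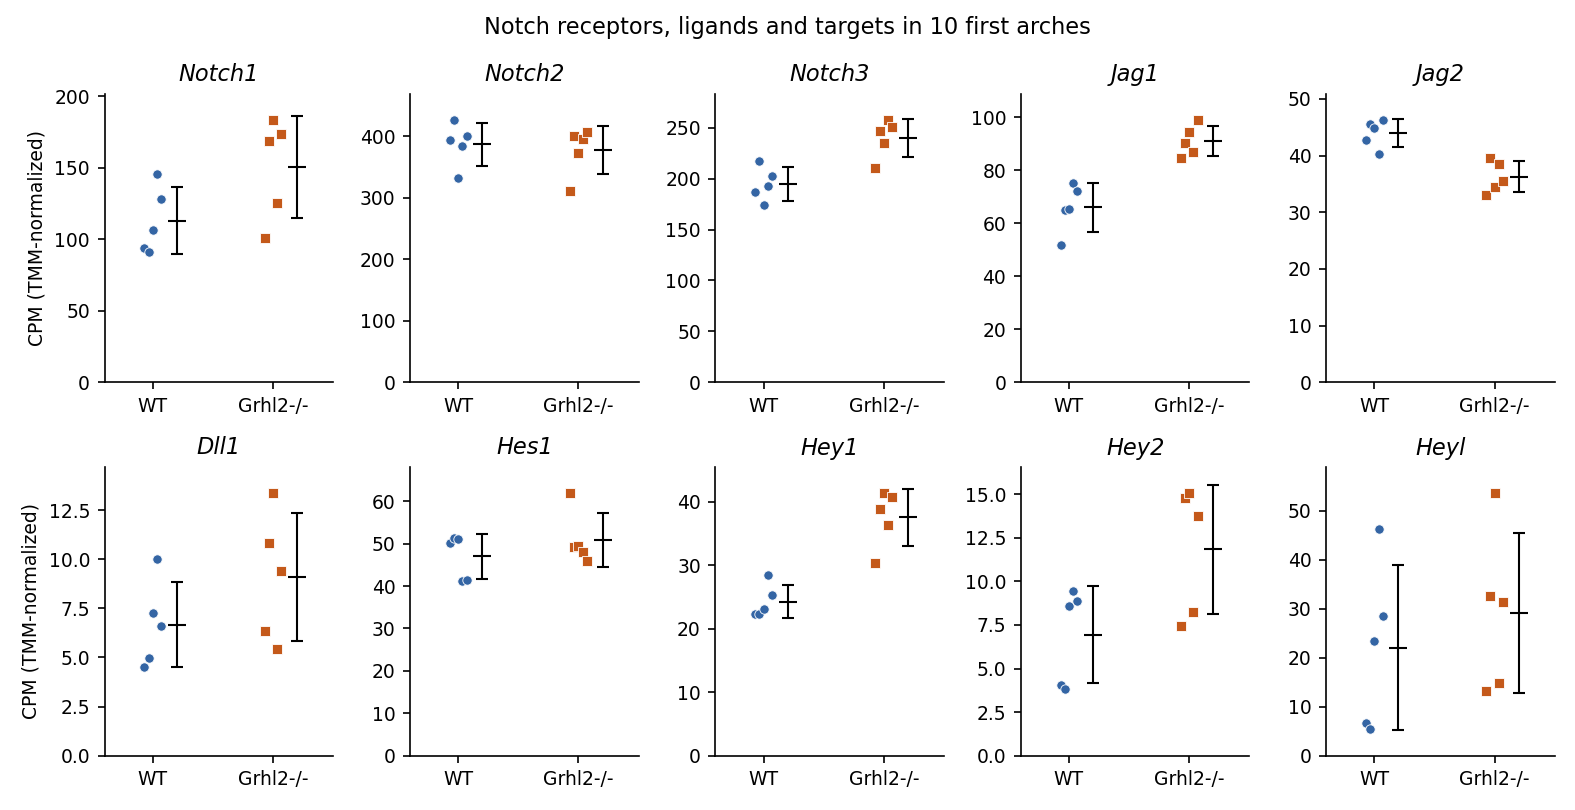
Normalized level of each member in CPM (axis from 0) in 5 wild-type and 5 Grhl2-/- arches, 1 point an arch, with mean and SD at the right of each group. The Hey1 points of Grhl2-/- arches lie between 30.4 and 41.4 CPM, all above the wild-type points, those of Jag2 all below, and those of Heyl spread over most of the axis in both genotypes.

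Of the receptors none was called, and Notch3 had the lowest FDR. Notch3, which is best known from the mural cells of vessels, was at 186.68, 217.07, 173.89, 193.23 and 202.54 CPM in wild-type arches 1 to 5. In Grhl2-/- arches 1 to 5 it was at 210.31, 247.28, 235.02, 257.89 and 250.52 CPM. Only wild-type arch 2 and Grhl2-/- arch 1 crossed, and the other 4 Grhl2-/- arches lay above every wild-type arch. The log2 fold change was 0.30 (SE 0.0676) with an FDR of 0.0240, so Notch3 missed the threshold. It passed at an FDR of 0.00867 when arches were weighted by their quality, at 0.000607 with DESeq2 and at 0.00744 without Grhl2-/- arch 1.

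Notch1, the receptor used in neurogenesis and in endothelium, was at 93.66, 91.17, 106.65, 145.72 and 127.81 CPM in wild-type arches 1 to 5. The Grhl2-/- arches had 100.95, 168.76, 183.48, 124.96 and 173.22 CPM. The groups overlapped, with 3 Grhl2-/- arches above all wild-type arches and Grhl2-/- arch 1 among the low wild-type ones. The log2 fold change was 0.40 (SE 0.179) with an FDR of 0.170. Notch2, the most abundant receptor, was at 392.85, 426.48, 331.74, 383.41 and 399.58 CPM in wild-type and 310.62, 400.66, 373.16, 395.88 and 406.25 CPM in Grhl2-/- arches. Its groups lay on top of each other, and the interval of its fold change ran from 0.860 to 1.1.

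Of the ligands, Jag1 was higher and Jag2 lower by sign, and Jag1 was called. Jag1, the Jagged ligand needed in arteries and in the arch skeleton, was at 51.73, 64.78, 65.46, 75.28 and 72.27 CPM in wild-type arches 1 to 5 and at 84.61, 90.11, 94.49, 86.75 and 99.00 CPM in Grhl2-/- arches 1 to 5. The lowest Grhl2-/- arch lay above the highest wild-type arch. Jag1 rose with a log2 fold change of 0.47 (SE 0.0874, FDR 0.00986), which is a fold of 1.39 with a 95% interval from 1.21 to 1.58. The call is close to the threshold. With edgeR's quasi-likelihood test the FDR was 0.0103, and it was between 0.0106 and 0.0299 when wild-type arch 2, 3 or 5 or any of the 5 Grhl2-/- arches was left out, while the log2 fold change stayed between 0.39 and 0.52 over the 10 fits that each left out an arch.

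Jag2, a Jagged ligand expressed in oral epithelium and needed for palate closure, was at 42.83, 45.62, 44.86, 40.31 and 46.33 CPM in wild-type and at 33.00, 39.52, 34.54, 38.61 and 35.60 CPM in Grhl2-/- arches. Each Grhl2-/- arch lay below each wild-type arch. The log2 fold change was -0.28 (SE 0.0603) with an FDR of 0.0200, so Jag2 was not called, and the exact two-sided permutation test over the 10 arches gave its smallest possible p of 0.00794. With DESeq2 the FDR of Jag2 was 0.000818. Epithelial markers moved in the same direction: the summed level of the 11 epithelial genes was 435 to 559 CPM in wild-type and 247 to 358 CPM in Grhl2-/- arches, and their part in the lower Jag2 was not tested. Dll1, a Delta ligand of differentiating neurons, was low, at 4.497, 4.997, 7.250, 9.996 and 6.625 CPM in wild-type and 6.35, 10.85, 13.36, 5.41 and 9.42 CPM in Grhl2-/- arches. The groups overlapped over most of their range (log2 fold change 0.40, SE 0.277, FDR 0.358), and without Grhl2-/- arch 3 the log2 fold change was 0.23.

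Per length, the make-up of the ligand and receptor transcripts differed between genotypes as well. Jag1 made up 58.7% ± 2.34 (SD, n = 5) of the summed RPKM of the 3 ligands in wild-type PA1 and 68.0% ± 2.06 in Grhl2-/- PA1. The share of Jag2 was 33.2% ± 3.92 and 22.7% ± 2.11. The genotypes did not overlap in either share, while that of Dll1 overlapped. The ratio of Jag1 to Jag2 was 1.44, 1.70, 1.74, 2.23 and 1.86 in wild-type arches 1 to 5 and 3.07, 2.73, 3.27, 2.69 and 3.32 in Grhl2-/- arches 1 to 5, so that the lowest Grhl2-/- ratio lay above the highest wild-type ratio. Among the receptors, Notch2 went from 52.8% ± 1.81 to 46.5% ± 0.810 of the summed RPKM, and Notch3 went from 35.5% ± 0.997 to 39.6% ± 1.88, again with no overlap. These shares restate the same counts and were given no test of their own.

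**Figure D3:**
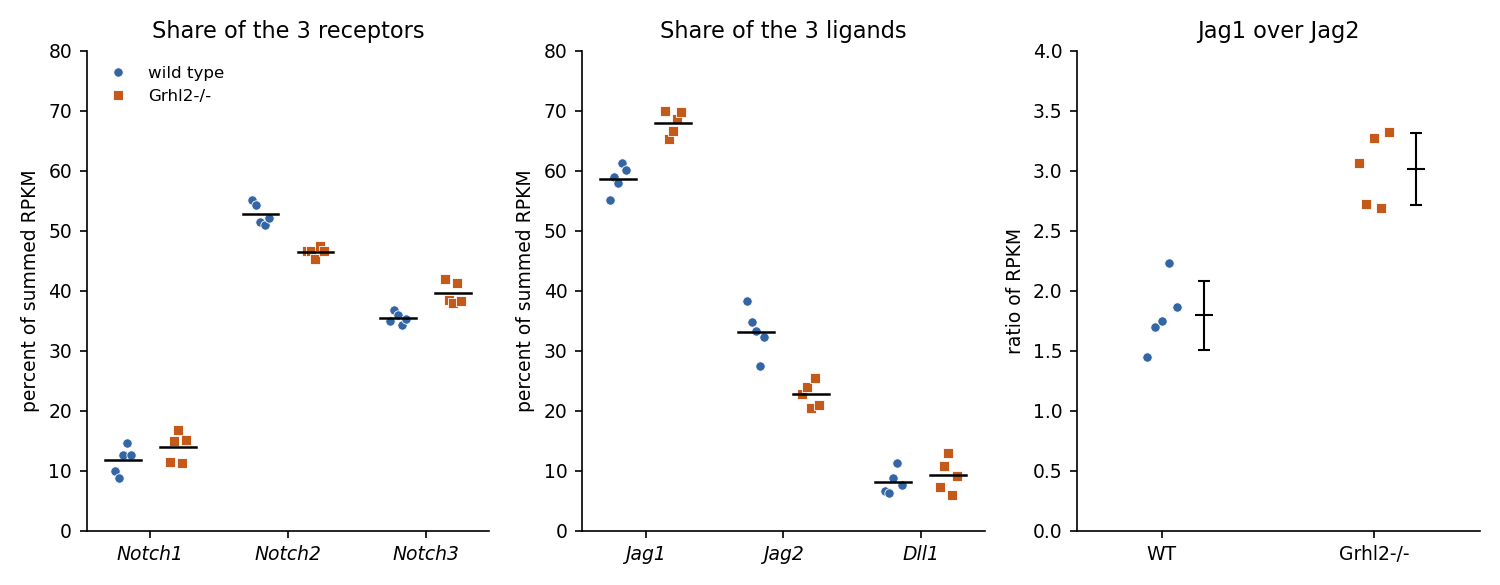
Share of each receptor and each ligand in the summed RPKM of its 3 genes, in percent with bars at the means, and the ratio of Jag1 to Jag2 with mean and SD, 1 point an arch. Wild-type ratios lie between 1.44 and 2.23 and Grhl2-/- ratios between 2.69 and 3.32.

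Among the targets, Hey1 rose, while Hey2, Heyl and Hes1 were not called. Hey1, a repressor induced by Notch in endothelium, endocardium and other tissues, was at 22.26, 22.25, 23.14, 28.43 and 25.25 CPM in wild-type arches 1 to 5. In Grhl2-/- arches 1 to 5 it was at 30.43, 38.90, 41.36, 36.36 and 40.70 CPM. Each Grhl2-/- arch lay above each wild-type arch. The log2 fold change was 0.62 (SE 0.0968, FDR 0.00354), a fold of 1.54 with a 95% interval from 1.33 to 1.79. Hey1 ranked at place 158 of the 14561 genes by p, ahead of Jag1 at 283, Jag2 at 437 and Notch3 at 498. The FDR passed 0.01, to between 0.0105 and 0.0130, when wild-type arch 1, 2, 3 or 5 or Grhl2-/- arch 2 or 5 was left out, with the log2 fold change between 0.59 and 0.69 over the 10 such fits.

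Hey2, which acts with Hey1 in heart and artery, was at 4.04, 3.81, 8.61, 9.45 and 8.85 CPM in wild-type and at 7.42, 14.76, 15.06, 8.22 and 13.75 CPM in Grhl2-/- arches. Wild-type arches 1 and 2 were lowest, Grhl2-/- arches 1 and 4 lay between them and the remaining wild-type arches, and the other 3 Grhl2-/- arches lay above every wild-type arch. Its log2 fold change, 0.79 (SE 0.310), was the highest of the 10 members, but with an FDR of 0.125 it was not called. Heyl, a Hey repressor found in smooth muscle and in sensory ganglia, was at 6.59, 5.43, 23.53, 46.24 and 28.52 CPM in wild-type and at 13.16, 32.66, 53.62, 14.91 and 31.43 CPM in Grhl2-/- arches. The highest wild-type arch was 8.52 times the lowest, the widest spread of any member. The log2 fold change of 0.62 had an SE of 0.586 (FDR 0.511). Without wild-type arches 1 and 2, where Heyl was lowest, the log2 fold change was -0.32. That fit kept Grhl2-/- arches 1 and 4, the lowest of their genotype. It was 0.20 without wild-type arch 2, 0.34 without wild-type arch 1 or Grhl2-/- arch 3, 1.01 without wild-type arch 4, and 0.40 with edgeR or DESeq2.

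Hes1, a widely used Notch target that also keeps progenitors undifferentiated, was at 50.19, 51.30, 51.13, 41.18 and 41.32 CPM in wild-type and at 61.89, 49.12, 49.39, 48.03 and 45.95 CPM in Grhl2-/- arches. Grhl2-/- arch 1 was above all others, and the remaining Grhl2-/- arches lay within the wild-type range. The log2 fold change was 0.11 (SE 0.0936, FDR 0.444), with the fold between 0.939 and 1.25 by its 95% interval. Without Grhl2-/- arch 1 the log2 fold change was 0.03, and it was 0.07 without wild-type arch 4 or 5. Hey1 made up 60.2% ± 15.7 of the summed RPKM of the 3 Hey genes in wild-type and 60.1% ± 9.48 in Grhl2-/- PA1.

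Several members went with sensory neuron transcripts within a genotype. In 20 pairs of arches (10 pairs within each genotype), Heyl and Hey2 were in the same order as the summed level of the 12 sensory neuron genes in 20 of 20 pairs. Hey1 and Notch1 were in the same order in 19 pairs, and Jag1 and Dll1 in 17. For Jag2 the number was 10, for Notch2 9, for Notch3 8 and for Hes1 6. The order was not particular to neurons. The summed level of 6 glial and neural crest genes was in the same order as Hey1 and Notch1 in 20 of 20 pairs, as Hey2 and Heyl in 19, as Jag1 in 18 and as Dll1 in 16. The epithelial sum ran the other way, in the same order as Hey1 and Notch1 in 2 pairs, as Hey2 and Heyl in 3 and as Jag1 and Dll1 in 4. The sum of 9 mesenchymal genes was in the same order as Hey2 and Heyl in 10 of 10 Grhl2-/- pairs but in 3 of 10 wild-type pairs. For Hey1 and Notch1 these numbers were 9 and 3. The pairs share 5 arches per genotype and are not independent, and the share of all genes in such an order was not determined. The part of these lists in the members' levels was not tested beyond the sensory neuron covariate. Of the sensory neuron genes tested, 0 of 12 were called at FDR below 0.01 by limma-voom, 0 by edgeR and 1 by DESeq2, as higher. By limma-voom 2 were higher at an unadjusted p below 0.05, as were 14.2% of all genes tested. The median log2 fold change of the 12 was 1.75, with wild-type arches 1 and 2 lowest of all arches in their sum. Tubb3, a neuronal tubulin, was at 153 CPM in wild-type PA1 and 246 CPM in PA1 that lacks GRHL2 (FDR 0.279). The 7 proneural genes, led by Neurod1 and Neurod4, were at 2.68 and 2.16 CPM in sum in wild-type arches 1 and 2, between 63.2 and 102 CPM in the other wild-type arches and between 35.4 and 140 CPM in Grhl2-/- arches.

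The members were fitted again with the sensory neuron sum and without the 2 wild-type arches of low sum. Grhl2-/- arches 1 and 4 stayed in the latter fit, at sums of 340 and 375 CPM. The lowest wild-type sum left in it was 576 CPM, so that fit did not even out the genotypes in this sum. With the log2 sum as a covariate, the log2 fold change of Hey1 was 0.52 (FDR 0.00157) and that of Jag1 0.38 (FDR 0.00689), that of Notch1 was 0.18 (FDR 0.286), and that of Heyl was -0.21 (FDR 0.199). Hey2, at 0.79 without the covariate, was at 0.40 with it (FDR 0.0283), and Dll1, at 0.40 without, was at 0.11 (FDR 0.689). Notch3 at 0.31 (FDR 0.0324), Jag2 at -0.27 (FDR 0.0404), Hes1 at 0.20 (FDR 0.179) and Notch2 at -0.03 (FDR 0.884) were not called with the covariate either. Without wild-type arches 1 and 2, Hey1 was at 0.53 (FDR 0.0455) and Jag1 at 0.34 (FDR 0.0288), and 0 of 10 members and 109 of all genes were called, in place of 286. In that fit 4 members, Hey1, Jag1, Jag2 and Notch3, were at an unadjusted p below 0.05, as were 18.2% of all genes tested in it, with Notch3 at 0.32 (FDR 0.0678) and Jag2 at -0.29 (FDR 0.116), while Hey2 was at 0.32, Notch1 at 0.21, Hes1 at 0.18, Dll1 at 0.11 and Notch2 at 0.0059, and Heyl was at -0.32.

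**Figure D4:**
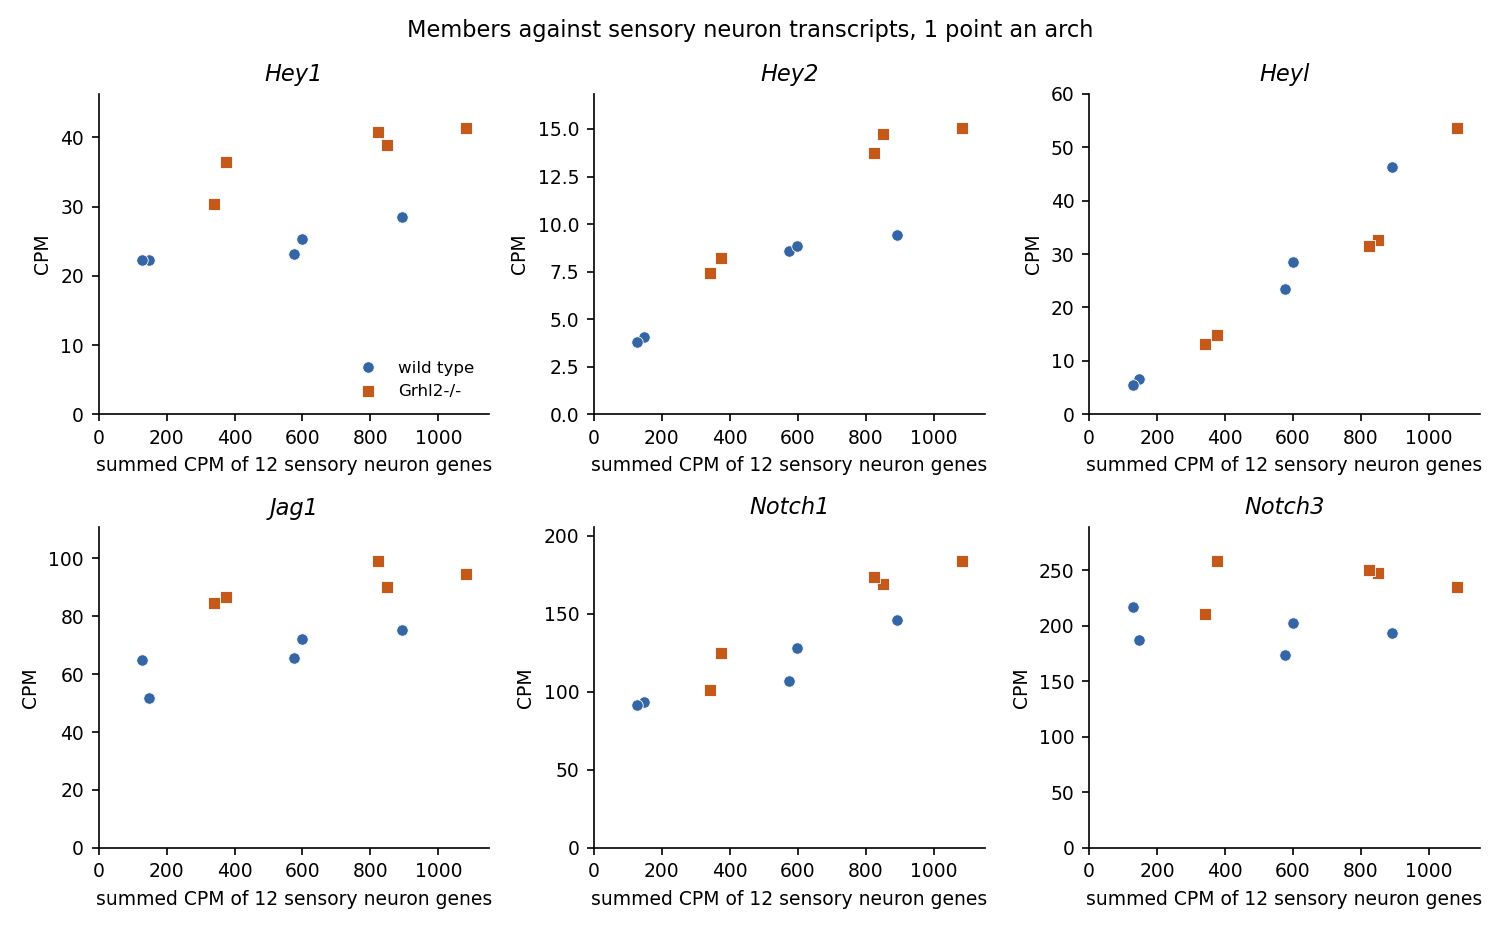
CPM of 6 members (vertical axes from 0) against the summed CPM of 12 sensory neuron genes (horizontal axis), 1 point an arch, circles wild type and squares Grhl2-/-. Heyl is higher where the sum is higher in both genotypes, from 5.43 to 46.24 CPM in wild-type and from 13.16 to 53.62 CPM in Grhl2-/- arches, and the points of the genotypes do not overlap in height in Hey1 and Jag1.

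Vessels and their mural cells use Notch too, so their markers were set beside the members. Of 14 endothelial genes 0 were called by limma-voom, 0 by edgeR and 2 as higher by DESeq2 (Kdr and Pecam1), and 7 were higher at an unadjusted p below 0.05, as were 14.2% of all genes tested. Kdr, a VEGF receptor, was at 114 CPM in wild-type PA1 and 145 CPM in PA1 that lacks GRHL2 (FDR 0.0305), and Cdh5, the endothelial cadherin, was at 87.1 and 93.7 CPM (FDR 0.113). Their summed level was 479 to 562 CPM in wild-type and 531 to 664 CPM in Grhl2-/- arches, which overlap. Of 7 arterial genes 0 were called by limma-voom, 0 by edgeR and 2 as higher by DESeq2 (Cxcr4 and Sox17). At an unadjusted p below 0.05, 5 of the 7 were higher, against the same 14.2% of all genes tested. The most abundant of the 7 were Efnb2 (log2 fold change 0.31, FDR 0.133) and Unc5b, which was lower by sign (-0.08, FDR 0.646). The arterial sums were 389 to 433 CPM in wild-type and 430 to 510 CPM in Grhl2-/- arches. The arterial sum was in the same order as Notch2 in 18 of 20 pairs of arches, as Jag2 in 17, as Notch3 in 15, as Jag1 in 12 and as Hey1 in 10, and the mural sum in the same order as Notch3 in 14 and as Jag1 and Hey1 in 7. The part of vessels in the higher Jag1, Hey1 and Notch3 was not tested. Of 7 mural genes tested 1 was called higher by limma-voom, Tagln, a smooth muscle actin-binding protein (3.09 against 17.6 CPM, FDR 0.000148), and edgeR also called Acta2, smooth muscle actin, and DESeq2 Acta2 and Abcc9. Acta2 was at 3.97 against 11.4 CPM (FDR 0.0236) and Abcc9 at 16.5 against 21.8 CPM (FDR 0.0390), both with no overlap, and in all 4 mural genes were higher and 1 lower at an unadjusted p below 0.05. The 2 most abundant were not called: Pdgfrb, the pericyte receptor, was at 180 and 170 CPM and Rgs5 at 39.1 and 31.0 CPM.

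Of 65 other genes of the pathway 60 were tested, and 0 were called at FDR below 0.01 in either direction by limma-voom, where 13 were higher and 2 lower at an unadjusted p below 0.05, a level that 14.2% of all genes tested reached as higher and 14.3% as lower. Their median log2 fold change was 0.08, and edgeR's quasi-likelihood test called 1 higher (Dtx3) and DESeq2 6 (Dtx3, Lfng, Maml3, Neurl1a, Bhlhe40 and Bhlhe41), where these tools called 0.975% and 3.57% of all genes tested higher. The 5 not tested were Hes2, Hes3, Hes7, Helt and Dlk1. Dlk1 is listed under 2 identifiers, both at 0 reads in every arch, and whether this 0 comes from the counting was not tested. Among the other receptors and ligands, Notch4, an endothelial receptor, was at 17.8 ± 0.929 CPM in wild-type PA1 and 21.8 ± 2.47 CPM in PA1 that lacks GRHL2 (log2 fold change 0.29, FDR 0.0535). Dner, a neuronal ligand, was near the floor of detection with 3 to 22 reads per wild-type and 16 to 39 per Grhl2-/- arch (log2 fold change 1.62, FDR 0.0438). The Fringe glycosyltransferases set how a receptor responds to Jagged and Delta. Of these, Lfng was at 6.59 ± 0.811 and 9.02 ± 0.731 CPM with no overlap (log2 fold change 0.45, FDR 0.0215), and Mfng was at 0.43 with an FDR of 0.273.

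In the proteases and the nuclear complex few genes came near the threshold. Psen2 and Ncstn, subunits of gamma-secretase, had the lowest FDR values of their role, at 0.291 and 0.311. Rbpj, the DNA-binding partner of the receptor, was at 52.7 ± 2.42 and 57.2 ± 5.29 CPM (log2 fold change 0.11, FDR 0.275). The co-activator Maml3 was at 0.34 (FDR 0.0350) and the co-repressor Ctbp1 at -0.09 (FDR 0.168). Of the ubiquitin ligases that drive endocytosis of the ligands, Neurl1a was at 6.17 ± 0.926 and 8.96 ± 0.995 CPM with no overlap (log2 fold change 0.55, FDR 0.0193) and Mib2 at 0.24 (FDR 0.0473). Dtx3, a Deltex family ubiquitin ligase, came closest to the threshold, at 70.5 ± 2.28 and 84.2 ± 5.21 CPM with no overlap (log2 fold change 0.25, FDR 0.0121), and its relative Dtx3l was at 0.30 (FDR 0.0576). Of the other Hes-related repressors, Bhlhe41 was at 1.23 (FDR 0.105) and Bhlhe40 at 1.66 (FDR 0.137). The genotypes did not overlap in 4 of the 60 genes, Notch4, Lfng, Neurl1a and Dtx3, each higher in Grhl2-/- PA1, against 4.22% of all genes tested in that direction.

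**Figure D5:**
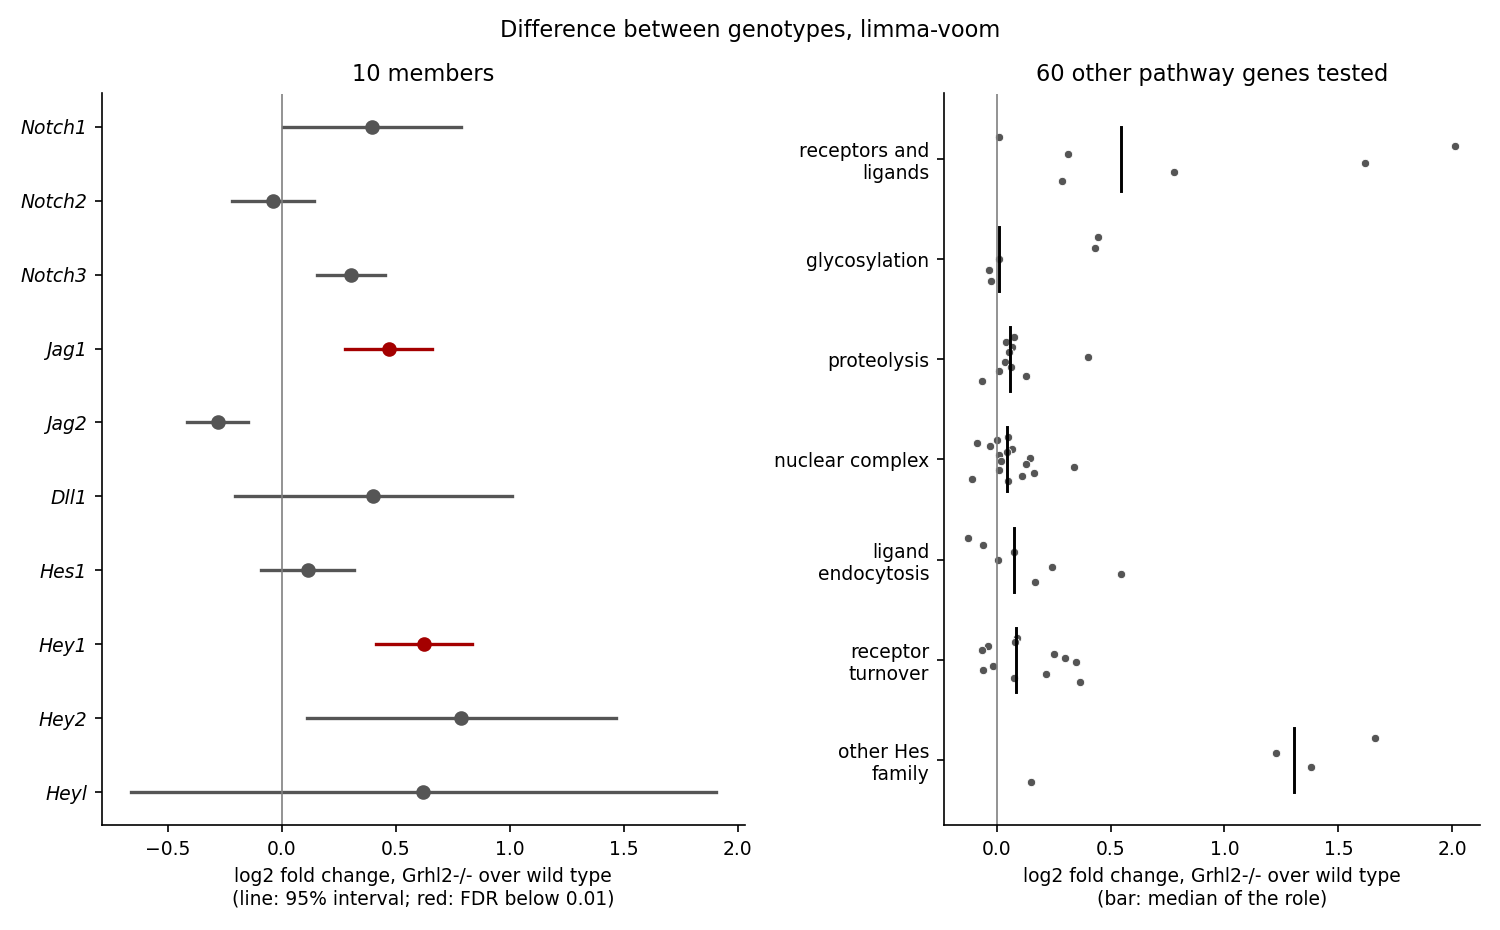
Log2 fold change of Grhl2-/- over wild-type PA1 for the 10 members with 95% intervals (left; red marks FDR below 0.01) and for 60 other pathway genes by role with a bar at each role's median (right). Jag1 at 0.47 and Hey1 at 0.62 passed, Jag2 alone of the members has an interval below 0, and 0 of the 60 other genes passed.

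The genes whose pattern over the 10 arches was most like a member's were found among all genes tested, by the root mean square difference of log2 CPM after each gene was centred on its mean. For Hey1 they were Cdh2, which encodes N-cadherin, at 0.0776, then Slc8a2 at 0.0904 and Abca3 at 0.103. Cdh2 and Slc8a2 were themselves called higher, with log2 fold changes of 0.65 and 0.60. For Jag1 they were Ddr1, a collagen receptor, at 0.103, Sema6d at 0.106 and Pcdhga3 at 0.107, of which Ddr1 was called (log2 fold change 0.50). Pcdhga3 shares its 3′ exons with the other gamma protocadherins, so its count is uncertain. For Notch3 the differences were smaller. They were 0.0492 for Igf2r, 0.0589 for Fn1, which encodes fibronectin, and 0.0619 for Nr2f2, with Igf2r and Nr2f2 called higher at log2 fold changes of 0.32 and 0.31. Likeness is a description over 10 arches and includes the genotype difference itself.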

How the data were processed

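RNA of whole E10.5 PA1 from 5 wild-type and 5 Grhl2-/- male embryos was sequenced as stranded, ribosomal RNA-depleted libraries, with 50 bp single-end reads. The authors used STAR for alignment to GRCm38 and featureCounts for counting, and the deposited values are raw counts per gene. Versions of these tools and the annotation release are not given in the sources used here. The name of the deposited table carries the word reverse, and the strand setting is not stated otherwise. A second deposited table, the authors' own comparison (log2 fold changes and adjusted p-values), was not used. Each of the 10 columns of counts was matched to a sample by title.

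A gene was tested if any 1 arch held 10 or more counts, which left 14561. Counts were normalized by TMM and tested with limma-voom (limma 3.58.1, edgeR 4.0.16, R 4.3.3), on genotype without covariates, with Benjamini-Hochberg adjustment over all genes tested. Genes at FDR below 0.01 were called, as higher or lower by sign. CPM values are TMM-normalized, given per arch or as mean ± SD over 5 arches, and RPKM divides them by the union of exon lengths in GENCODE M21. Permutation tests are exact and two-sided over 252 assignments of arches, and their smallest p is 0.00794. Intervals are at 95%. Arches are separate embryos, and their number limits the precision.

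The members and gene lists were chosen with earlier results of these data known. Named are all members, per role of the pathway list the 2 genes of lowest FDR, per marker list the genes called and the 2 of highest level (summarized where many were called), and for members called and the member of lowest FDR per role the 3 genes of most like pattern. Epcam, genes named for a call by another tool, genes not tested, Rbpj, Hes5 and Dll3 fall outside this rule and were chosen after their values were seen. Some genes that this rule names are not reported here. Glial, muscle, mesenchyme, macrophage and erythroid markers were also listed. The alternatives tried were DESeq2 1.42.0, edgeR's quasi-likelihood test, scaling by median-of-ratios size factors or by library size alone, 3 other filters, quality weights, the label number as a replicate block, FDR below 0.05, other gene lengths, and each arch left out in turn. A sensory neuron covariate and a fit without wild-type arches 1 and 2 were added after the data were seen. The fits were also run on simulated counts with known changes, and the outcome is not reported here.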

Additional observations from a re-analysis of the deposited data

Results flagged for a closer look

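Of 66 sets of 5 values checked for a sample far from the others (levels of the members and Grhl2, shares, marker sums and total counts, per genotype), 2 held such a sample, where chance gives about 1 in 20. Hes1 was at 61.89 CPM in Grhl2-/- arch 1, and the nearest of the other Grhl2-/- arches was at 49.39 CPM. Without this arch the log2 fold change of Hes1 was 0.03, against 0.11 with it, and Hes1 was not called in either fit. The summed level of 7 muscle progenitor genes of the arch was 63.99 CPM in wild-type arch 3, and the nearest wild-type arch was at 53.00 CPM. Of these 7 genes 0 were called by limma-voom and 1 was lower at an unadjusted p below 0.05.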

How the results depend on the processing

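Notch1, Dll1, Hes1 and Hey2 kept their direction and stayed uncalled in all 22 alternatives. Hey1 and Jag1 kept their direction in all, and each call was lost in some. Jag1 was no longer called, at log2 fold changes of 0.46 with edgeR's quasi-likelihood test and 0.47 with median-of-ratios size factors and with each of the 3 other filters (FDR 0.0103 to 0.0114). Without wild-type arches 1 and 2, Jag1 at 0.34 and Hey1 at 0.53 were not called, Notch2 turned to 0.0059 and Heyl to -0.32, members called higher were 0, and all genes were 90 lower and 19 higher. With the sensory neuron covariate Heyl turned to -0.21. The cause of these changes was not tested. Notch3 was called at 0.30 with DESeq2 and at 0.33 with quality weights. Jag2 was called at -0.28 with DESeq2. In the exact permutation test it was at -0.28 with the smallest possible p of 0.00794, which restates that its groups do not overlap. Jag1 and Hey1 reached the same p in that test.

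Members called higher were 1 with edgeR, with median-of-ratios size factors and with each of the 3 filters, 3 with DESeq2, with quality weights and at FDR below 0.05, and 2 with library size alone and with the covariate. In the former 5 settings all genes called were 158 to 163 lower and 112 to 142 higher. Members called lower were 1 with DESeq2 and 1 at FDR below 0.05. Other pathway genes called higher were 1 with edgeR, 6 with DESeq2, 1 with quality weights and 6 at FDR below 0.05. All genes called were 553 lower and 520 higher with DESeq2, 204 higher with quality weights, and 564 lower and 559 higher at FDR below 0.05.

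When arches were left out 1 at a time, log2 fold changes were 0.59 to 0.69 for Hey1 (called in 4 of 10 fits), 0.39 to 0.52 for Jag1 (called in 2 of 10), 0.26 to 0.34 for Notch3 (called in 1, without Grhl2-/- arch 1) 0.20 to 1.01 for Heyl and 0.23 to 0.57 for Dll1 and 0.03 to 0.15 for Hes1 (none of these called), and -0.10 to 0.023 for Notch2, which turned without Grhl2-/- arch 1. Members called higher were 0 to 2, and 0 without wild-type arch 2, 3 or 5 or Grhl2-/- arch 2 or 5. Other pathway genes called higher were 0 to 1, and all genes 110 to 249 lower and 42 to 143 higher.

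The labels carry a number that some embryos of both genotypes share, without saying what it marks. Over 5 same-numbered pairs, the correlation of deviations from the mean of the genotype averaged 0.105 (-0.237 to 0.420, 3 of 5 over 0.1) against -0.0253 over 20 others, so these data do not show that the number pairs the samples. With it as a replicate block neither Hey1 nor Jag1 was called, where Hey1 was at 0.60 (FDR 0.0168), Jag1 at 0.44 (FDR 0.0744) and Notch3 at 0.29 (FDR 0.00747, called), members called higher were 1, and all genes were 69 lower and 60 higher. At this depth Dner, Hes5 and Dll3 rest on few reads.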

Other observations

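Markers of other cell types were set beside the genotypes by the same fit, in which 14.2% of all genes tested were higher and 14.3% lower at an unadjusted p below 0.05. Of 9 mesenchymal genes 1 was called lower by limma-voom, Msx1, a homeobox factor of the jaw mesenchyme (174 against 110 CPM, FDR 0.00595), and 5 were lower at an unadjusted p below 0.05, and 4 were lower with DESeq2, while the most abundant, Prrx1 and Pdgfra, were not called (FDR 0.116 and 0.706). Of 7 proneural genes 0 were called by limma-voom and edgeR and 2 by DESeq2, as higher, and 2 were higher at an unadjusted p below 0.05. The median log2 fold change of this list was 1.90 and that of the glial list 0.86. Of 6 glial and neural crest genes 0 were called and 0 were at an unadjusted p below 0.05, with Sox10 at 25.0 and 42.5 CPM (FDR 0.204) and Erbb3 at 57.5 and 53.6 CPM (FDR 0.822). Their summed level was 46.1 to 201 CPM in wild-type and 77.4 to 229 CPM in Grhl2-/- arches. Of 6 macrophage genes 0 were called and 0 were at an unadjusted p below 0.05, with Csf1r and Cx3cr1 at FDR values of 0.916 and 0.622. Of 7 erythroid genes 0 were called and 5 were lower at an unadjusted p below 0.05, with the embryonic globins Hbb-y and Hba-x at FDR values of 0.114 and 0.140. In the glial, macrophage, erythroid and muscle lists edgeR and DESeq2 called 0 genes as well.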
